A study of Homo sapiens with 16 samples.

Results

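Targets of the transcription factor NF-kB and the chemokines among them were followed on 1-colour arrays in HepG2, a cell line from a human liver tumour. The set holds 10 genes taken by symbol: the chemokines IL8 (now CXCL8), CXCL1, CXCL2, CCL2 and CCL20, the inhibitors NFKBIA and TNFAIP3, the adhesion molecule ICAM1, and the NF-kB subunits NFKB1 and RELB. The probe table gave 10 of its 30968 probes one of these symbols, for 8 of the 10 genes, with 2 probes each for CCL2 and RELB. CXCL1 and CXCL2 had no probe of that symbol, so that only their promoters were searched here. Of the 10 probes 9 entered the test, because the dimmer CCL2 probe had a value at or below 0 in 1 sample.

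Cells were kept in serum-free medium for 7 days with 100 µM elaidic acid, with 100 µM oleic acid, with 100 µM stearic acid, or with no added fatty acid (control), in 4 biological replicates each. The 3 acids have the same chain length. Elaidic acid is the trans isomer of oleic acid, whose double bond is cis, and stearic acid has no double bond. All groups are 1 cell line, and the labels name neither a cytokine nor any other inflammatory stimulus in any group.

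NF-kB is a family of dimeric transcription factors that wait in the cytoplasm, bound to inhibitor proteins such as the product of NFKBIA. Signals from receptors for TNF, interleukin-1 or bacterial products activate a kinase that marks the inhibitor for destruction, and the freed dimers enter the nucleus and bind kappa B sites in promoters. Among the genes they switch on are chemokines, adhesion molecules, some of the subunits, and the inhibitors that end the response. In the liver, hepatocytes answer such signals by releasing chemokines and acute phase proteins.

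Promoters of the members are shown because the genes were grouped as NF-kB targets. RefSeq promoter windows on GRCh38.p14 were matched by symbol for 8 of the 10 members; CCL2 and RELB were not matched. The 200 bases before the start were searched on both strands for the kappa B consensus, which has 10 letters, and for the palindrome GGAANTTCC, which overlaps the consensus in some promoters. All 8 matched members held at least 1 of these motifs in 1 window, against 4.7% of the 35116 promoter windows in the table (4.21% for the consensus and 0.661% for the palindrome). The members were picked as NF-kB targets, so the comparison is no test, and it sets a count of genes beside a share of windows. A match describes the letters only and shows no binding. The windows of 6 members with array values follow, 5′ to 3′ in the direction of the gene, with the matched letters in capitals. IL8 lies at chr4:73740369-73740568, plus strand, ICAM1 at chr19:10270920-10271119, plus strand, NFKBIA at chr14:35404750-35404949, minus strand, TNFAIP3 at chr6:137867059-137867258, plus strand, CCL20 at chr2:227813642-227813841, plus strand, and NFKB1, for the motif-bearing one of its 2 starts in the table, at chr4:102501159-102501358, plus strand.
IL8: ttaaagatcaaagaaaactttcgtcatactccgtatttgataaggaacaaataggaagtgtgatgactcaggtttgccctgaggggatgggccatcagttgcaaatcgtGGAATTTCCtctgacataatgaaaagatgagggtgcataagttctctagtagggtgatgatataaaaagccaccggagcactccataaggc
ICAM1: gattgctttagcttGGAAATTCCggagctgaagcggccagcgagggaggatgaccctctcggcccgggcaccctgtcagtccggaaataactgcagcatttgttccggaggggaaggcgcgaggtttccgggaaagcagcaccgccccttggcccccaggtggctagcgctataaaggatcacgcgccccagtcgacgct
NFKBIA: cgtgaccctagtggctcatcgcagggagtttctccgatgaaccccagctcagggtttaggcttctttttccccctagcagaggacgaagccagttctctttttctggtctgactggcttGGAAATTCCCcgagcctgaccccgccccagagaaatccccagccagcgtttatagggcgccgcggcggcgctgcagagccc
TNFAIP3: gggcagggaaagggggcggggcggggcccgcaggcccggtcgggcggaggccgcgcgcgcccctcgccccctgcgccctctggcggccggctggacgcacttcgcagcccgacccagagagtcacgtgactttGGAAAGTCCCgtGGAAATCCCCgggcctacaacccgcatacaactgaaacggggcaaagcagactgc
CCL20: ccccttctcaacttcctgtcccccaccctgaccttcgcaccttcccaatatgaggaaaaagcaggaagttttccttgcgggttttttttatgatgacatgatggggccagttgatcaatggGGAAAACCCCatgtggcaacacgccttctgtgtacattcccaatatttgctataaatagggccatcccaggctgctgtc
NFKB1: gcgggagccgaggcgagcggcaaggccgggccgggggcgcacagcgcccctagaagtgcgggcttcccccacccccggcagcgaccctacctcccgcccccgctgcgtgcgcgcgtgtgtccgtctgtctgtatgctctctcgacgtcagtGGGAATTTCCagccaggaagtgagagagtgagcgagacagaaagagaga
In IL8 and ICAM1 only the palindrome was found, at bases -91 to -83 and -186 to -178 from the start. CCL20 and TNFAIP3 held the consensus alone, TNFAIP3 at 2 places 2 bases apart. In NFKBIA and NFKB1 the consensus and the palindrome overlapped.

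By the array numbers in the labels the slides form 2 series. Series B was used for elaidic acid replicates 1 and 3 and for every stearic acid sample, and series A for elaidic acid replicates 2 and 4, for oleic acid and for control. Median intensity per sample was 56.6 ± 10.3 in series B (SD, n = 6) and 36.2 ± 16.04 in series A (SD, n = 10), and the lowest medians were those of control replicate 1 (20.0) and oleic acid replicate 4 (20.7). No series holds stearic acid together with control or oleic acid, so that acid and series cannot be told apart by direct comparison there. Changes of the members are therefore also given from a fit with slide series as a block, which leaves the size of oleic acid against control as it is. For elaidic acid against control that fit uses the difference within series A. Errors given beside a difference within a series are those of this blocked fit, not of that series alone. For stearic acid against control it runs through the elaidic acid samples, which lie in both series. Precision is limited by how many arrays there were. The hepatocyte markers with a probe (6 of 8, including APOA1 and AFP; ALB and HNF4A had none) had medians between the 95.3 and the 99.1 percentile of tested probes in every sample. The corresponding medians were between 36.7 and 50.8 for 4 leukocyte markers, between 4.49 and 28.2 for 3 endothelial markers and between 28.7 and 50.6 for 3 stellate cell or fibroblast markers. The median log2 change of the hepatocyte markers against control was 1.08 with elaidic acid (1 of 6 called higher, against 0.305% of all probes). It was 1.10 with stearic acid (4 of 6 called higher, against 15%). With slide series as a block these medians were 0.57 and 0.39, with 0 of 6 called in each. Without the block, dimmer second probes with stearic acid gave -1.23 for APOB and 2.19 for TTR, which passed. Those of APOA1, at 0.14, and SERPINA1, at 0.45, did not. With elaidic acid these probes gave -0.56, 2.33, 0.33 and 0.42, in the same order, and none passed. The hepatocyte markers' mean log2 level per sample was 12.9 to 13.8 with elaidic acid, 11.2 to 12.5 with oleic acid, 13.4 to 13.6 with stearic acid and 11.4 to 12.6 in control. Their part in the results was not tested.

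In deposited intensity the members ranged from near background to among the brightest probes of the array. CCL20, which encodes an attractant of CCR6-bearing lymphocytes and dendritic cells, had 4579 to 13537 units over the 16 samples, and NFKBIA had 715.0 to 12132. TNFAIP3, which encodes the ubiquitin-editing protein A20, had 2540 to 7656, and ICAM1, a ligand for leukocyte integrins, had 389 to 3666. IL8, the neutrophil attractant interleukin-8, was dimmer at 43.3 to 614, and NFKB1 (p105 and p50) at 13.3 to 189. The brighter RELB probe had 7.13 to 262 units, the dimmer RELB probe 7.15 to 47.1, the brighter CCL2 probe 8.50 to 67.4 and the dimmer CCL2 probe -1.49 to 15.8. These are levels of different probes and say nothing of which gene has more RNA.

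With no detection column in the table, a background limit was set in each sample at 3 times the root mean square of its values at or below 0, which gave 8.79 to 12.3 units. The dimmer probe of CCL2, the monocyte attractant MCP-1, was at or below that limit in 13 of 16 samples and is called near background. The brighter CCL2 probe was there in 2 samples, the dimmer RELB probe in 2 and the brighter RELB probe in 1, and no other member in any.

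**Figure D1:**
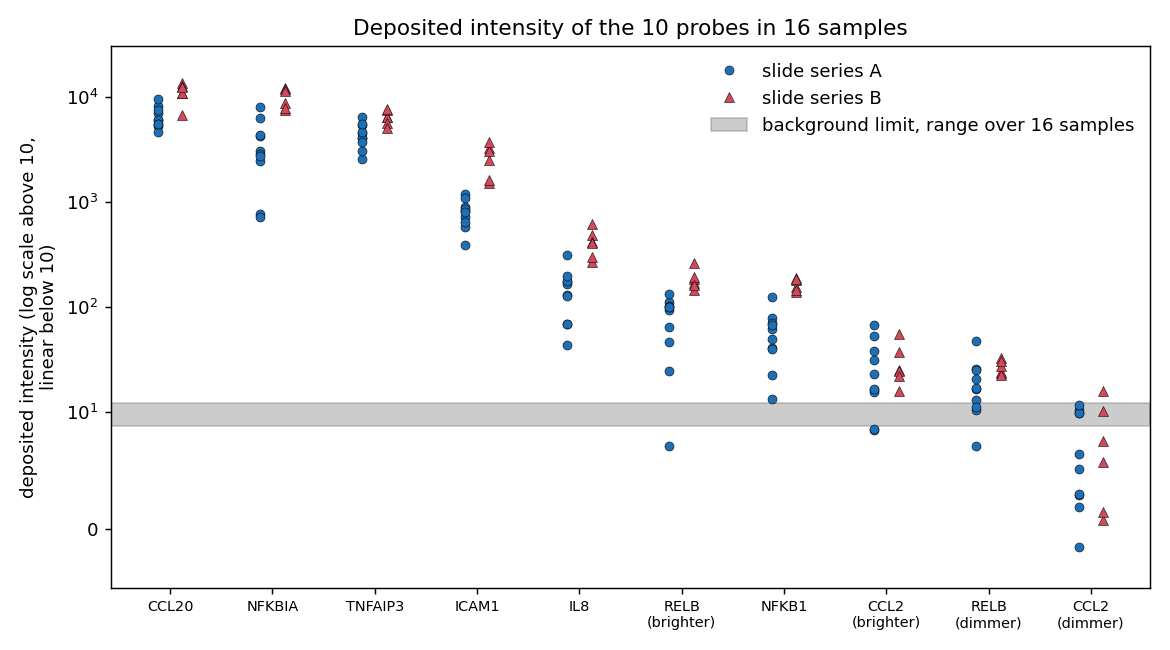
Deposited intensity (arbitrary units, logarithmic above 10 and linear below) of the 10 member probes in the 16 samples, with circles for slide series A and triangles for series B. CCL20, NFKBIA and TNFAIP3 lie at or above 715.0 units in every sample, while the dimmer CCL2 probe lies within or below the grey band of background limits (8.79 to 12.3) in nearly all samples.

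ICAM1 was the member with the clearest order between the acids. Its log2 normalised intensity was 10.22, 9.93, 10.17 and 10.51 in elaidic acid replicates 1 to 4, 10.56, 9.75, 9.60 and 10.17 with oleic acid, 11.23, 10.97, 10.98 and 10.99 with stearic acid, and 9.53, 9.42, 9.86 and 9.17 in control. Every stearic acid sample was above every other sample, the 4 elaidic acid samples lay above the 4 of control, and oleic acid overlapped both elaidic acid and control. ICAM1 rose by 1.54 ± 0.24 on the log2 scale (SE, n = 4 per group) with stearic acid against control, which is 2.92-fold (95% interval of the log2 change 1.03 to 2.05; limma adjusted p = 0.0012). With elaidic acid the change was 0.71 ± 0.24 (0.20 to 1.22; adjusted p = 0.22) and with oleic acid 0.52 ± 0.24 (0.01 to 1.03; adjusted p = 1.0), and neither passed.

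The differences of ICAM1 between acids at matched dose and time followed the same order. ICAM1 was lower with oleic than with stearic acid by a log2 change of -1.03 ± 0.24 (95% interval -1.53 to -0.52; limma adjusted p = 0.0068). The difference of elaidic acid from stearic acid was -0.84 ± 0.24 (-1.35 to -0.33; adjusted p = 0.13), and that of elaidic acid from oleic acid was 0.19 ± 0.24 (-0.32 to 0.70; adjusted p = 0.63), or 0.20 ± 0.29 within series A. The trans and the cis isomer were therefore not separated by this probe, with an interval that still allows a log2 difference of 0.70.

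For ICAM1 the sizes were close to these with slide series as a block, though no call was made. Within series B the 2 elaidic acid samples, at 10.22 and 10.17, were below the 4 stearic acid samples, at a difference of -0.85 ± 0.29 (SE of the blocked fit), and the groups did not overlap. Within series A the 2 elaidic acid samples, at 9.93 and 10.51, were above the 4 control samples, by 0.72 ± 0.29. With the block, stearic acid against control gave 1.57 ± 0.41 (95% interval 0.68 to 2.45; adjusted p = 0.35). In deposited units, before any normalisation, ICAM1 had 1522 and 1619 in the series B elaidic acid samples and 2519 to 3666 in the stearic acid samples, so that the same order held.

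**Figure D2:**
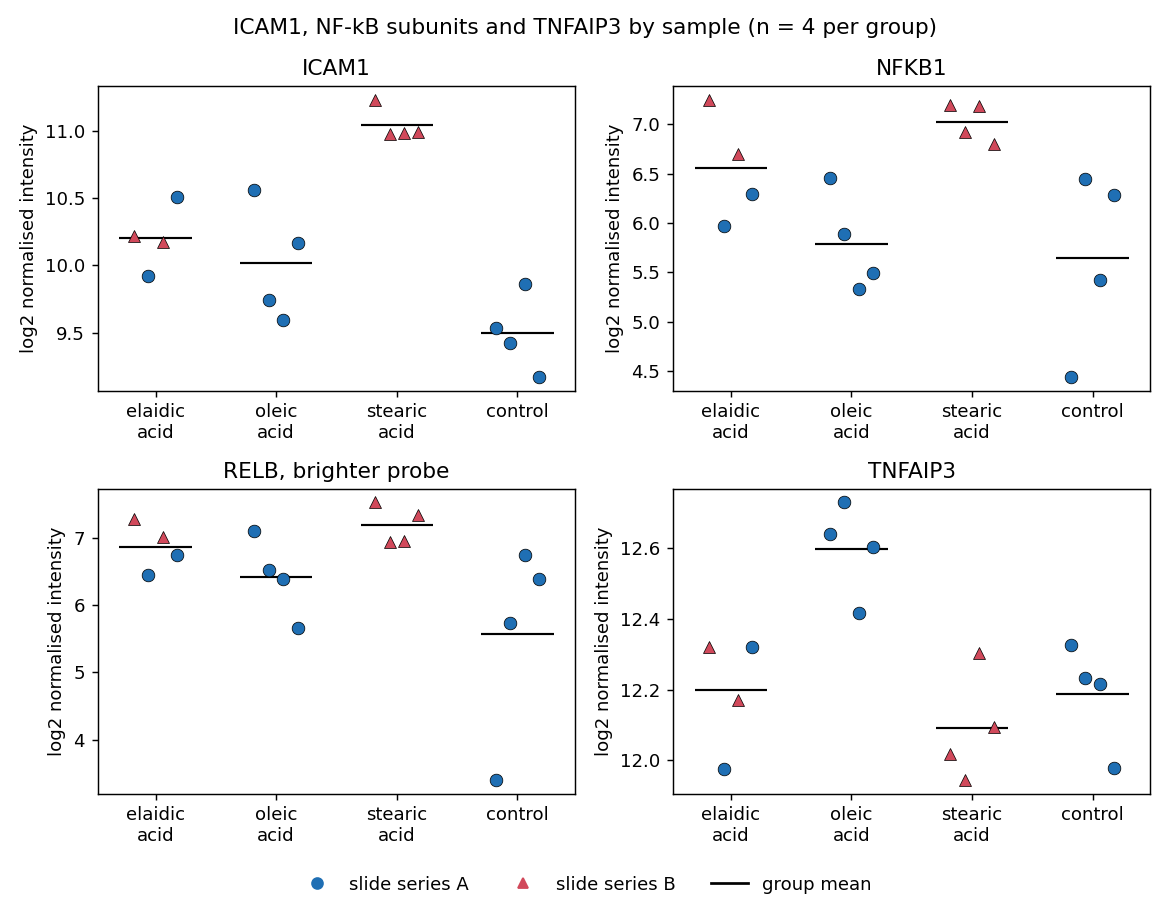
Log2 normalised intensity (vertical axis) of ICAM1, NFKB1, the brighter RELB probe and TNFAIP3 in each sample of the 4 groups (n = 4 each), with circles for slide series A, triangles for series B and a line at the group mean. ICAM1 lies highest in the 4 stearic acid samples and has its lowest group mean in control, and TNFAIP3 lies highest in the 4 oleic acid samples.

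The subunit genes NFKB1 and RELB were higher with stearic acid than in control, but their sizes depended on slide series. NFKB1 encodes the p105 precursor of p50, the partner of RelA in the best known NF-kB dimer. It was at 7.25, 5.97, 6.70 and 6.29 with elaidic acid, 6.45, 5.89, 5.33 and 5.49 with oleic acid, 7.19, 6.92, 7.19 and 6.80 with stearic acid, and 4.44, 6.44, 5.42 and 6.29 in control. The 4 stearic acid samples were above all control samples, and the 2 elaidic acid samples of series B were above the 2 of series A. NFKB1 rose by 1.38 ± 0.41 with stearic acid against control (SE, n = 4 per group; limma adjusted p = 0.022) and was lower with oleic than with stearic acid by -1.23 ± 0.41 (adjusted p = 0.028). With the block these changes were 0.54 ± 0.67 and -0.39 ± 0.67, with adjusted p = 1.0 for each. Without control replicate 1, the dimmest array, stearic acid against control was 0.97 and did not pass (adjusted p = 0.073). The change with elaidic acid was 0.90 ± 0.41 (adjusted p = 0.33), or 0.48 ± 0.47 within series A.

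RELB encodes the subunit of the alternative NF-kB pathway, which pairs with the NFKB2 product. Its brighter probe was at 7.28, 6.44, 7.01 and 6.75 with elaidic acid, 7.10, 6.52, 6.39 and 5.65 with oleic acid, 7.53, 6.94, 6.96 and 7.34 with stearic acid, and 3.41, 5.74, 6.75 and 6.39 in control. Stearic acid and control did not overlap, and control replicate 1 was far below the other control samples. At 7.13 units, that reading was also below the background limit of its sample (10.2). That probe rose by 1.62 ± 0.55 with stearic acid (SE, n = 4 per group; limma adjusted p = 0.038). The change was 0.89 without control replicate 1 (adjusted p = 0.087) and 1.07 ± 0.96 with the block (adjusted p = 0.94), so that the call was lost in both. The brighter probe had changes of 1.30 ± 0.55 with elaidic acid (adjusted p = 0.31), or 1.02 ± 0.68 within series A, and 0.84 ± 0.55 with oleic acid (adjusted p = 1.0). The dimmer RELB probe, near the background limit in 2 samples, had a change of 0.39 ± 0.41 with stearic acid (adjusted p = 0.47), or 0.08 ± 0.72 with the block, so that the probes of this gene differed in size.

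TNFAIP3 was the member that stood higher with oleic acid after normalisation. Its product A20 removes and edits ubiquitin chains on signalling proteins and so limits NF-kB activation. Its values were 12.32, 11.98, 12.17 and 12.32 with elaidic acid, 12.64, 12.73, 12.42 and 12.60 with oleic acid, 12.02, 11.95, 12.30 and 12.09 with stearic acid, and 12.32, 12.23, 12.22 and 11.98 in control. The 4 oleic acid samples were above all 12 others in these normalised values. In deposited units they overlapped every other group, at 3702 to 6337 with oleic acid and 2540 to 5317 in control. Elaidic acid had 3015 to 6434 and stearic acid 4971 to 7656. Against control, all in series A, the change was 0.41 ± 0.18 (SE, n = 4 per group; 95% interval 0.02 to 0.79; limma adjusted p = 1.0), which did not pass. TNFAIP3 was higher with oleic than with stearic acid by 0.51 ± 0.18 (adjusted p = 0.039), or 0.60 ± 0.30 with the block (adjusted p = 0.79). The difference was -0.35 without normalisation and 0.26 with median scaling, so that its direction rests on the normalisation. The medians of all probes there were -0.39 and 0.22. Elaidic against oleic acid gave -0.40 ± 0.18 (adjusted p = 0.25), or -0.45 ± 0.21 within series A, where the isomers again did not overlap. With elaidic acid against control TNFAIP3 had a change of 0.01 ± 0.18 (-0.38 to 0.39), and with stearic acid -0.10 ± 0.18 (-0.48 to 0.29), where the sign turned without normalisation (0.66) and with median scaling (0.16). With the block these were -0.039 ± 0.21 and -0.20 ± 0.30. In stearic acid against control the median of all probes was 0.26 without normalisation and -0.24 with median scaling.

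IL8 and NFKBIA showed no change that passed, and in both the elaidic acid samples differed by slide series. IL8 was at 8.96, 6.53, 8.50 and 7.20 with elaidic acid, 7.79, 7.41, 7.48 and 6.87 with oleic acid, 8.56, 7.87, 7.85 and 7.94 with stearic acid, and 6.57, 7.22, 7.40 and 7.72 in control. The elaidic acid samples of series B, replicates 1 and 3, were higher than those of series A by 1.87 on the log2 scale, and the lowest elaidic acid sample was below every control sample. Stearic acid and control did not overlap, but the change of IL8 was 0.83 ± 0.44 (SE, n = 4 per group; limma adjusted p = 0.15) and it turned to -1.04 ± 0.51 with the block (adjusted p = 0.68). Elaidic acid against control gave 0.57 ± 0.44 (adjusted p = 0.53), and -0.37 ± 0.36 within series A (SE of the blocked fit). Elaidic against stearic acid gave -0.26 ± 0.44 (adjusted p = 0.77), and 0.68 ± 0.36 within series B.

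NFKBIA encodes the inhibitor that holds RelA and p50 dimers in the cytoplasm and is itself a rapid NF-kB target. It was at 13.31, 11.999, 13.03 and 11.77 with elaidic acid, 11.88, 12.14, 12.67 and 10.34 with oleic acid, 13.01, 12.53, 12.52 and 12.13 with stearic acid, and 10.58, 12.29, 11.31 and 12.52 in control. All groups overlapped, and within elaidic acid both series B samples were above both series A samples, by 1.29 in the mean. The lowest values were those of oleic acid replicate 4 and control replicate 1, the arrays of lowest median intensity. The part of array brightness in these values was not tested. Changes of NFKBIA against control were 0.85 ± 0.52 with elaidic acid (SE, n = 4 per group; limma adjusted p = 0.44) and 0.87 ± 0.52 with stearic acid (adjusted p = 0.20). With the block they were 0.21 ± 0.58 and -0.41 ± 0.82. Elaidic against stearic acid gave -0.02 ± 0.52 (adjusted p = 0.98), and 0.62 ± 0.58 within series B, where both elaidic acid samples were above the 4 stearic acid samples.

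**Figure D3:**
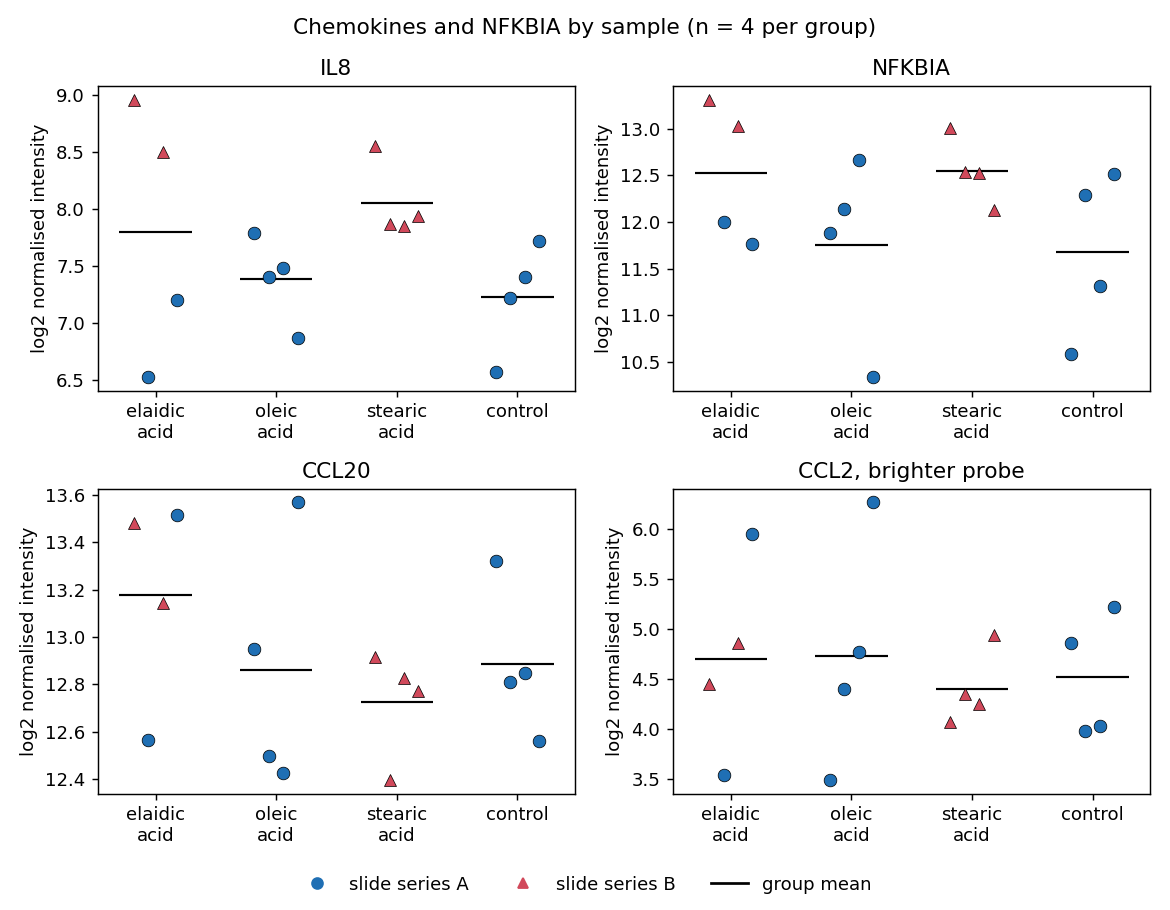
Log2 normalised intensity (vertical axis) of IL8, NFKBIA, CCL20 and the brighter CCL2 probe in each sample of the 4 groups (n = 4 each), with circles for slide series A, triangles for series B and a line at the group mean. In the elaidic acid group the 2 triangles of IL8 (8.96 and 8.50) lie above the 2 circles (6.53 and 7.20).

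CCL20 was bright in every sample and showed no change that passed. Its values were 13.48, 12.56, 13.14 and 13.52 with elaidic acid, 12.95, 12.50, 12.42 and 13.57 with oleic acid, 12.91, 12.40, 12.83 and 12.77 with stearic acid, and 13.32, 12.81, 12.85 and 12.56 in control, and all groups overlapped. The changes of CCL20 against control were 0.29 ± 0.29 with elaidic acid (SE, n = 4 per group; 95% interval -0.33 to 0.91) and -0.16 ± 0.29 with stearic acid (-0.78 to 0.46), which turned to 0.61 without normalisation and 0.11 with median scaling. With the block they were 0.15 ± 0.35 and -0.43 ± 0.50. All probes had a median of 0.26 without normalisation and -0.24 with median scaling in stearic acid against control. Within series B the 2 elaidic acid samples, at 13.48 and 13.14, were above the 4 stearic acid samples. The brighter CCL2 probe was at 4.45, 3.54, 4.86 and 5.95 with elaidic acid, 3.49, 4.40, 4.77 and 6.27 with oleic acid, 4.07, 4.35, 4.25 and 4.94 with stearic acid, and 4.86, 3.98, 4.03 and 5.23 in control. Its change with stearic acid was -0.12 ± 0.55 (-1.29 to 1.05), or -0.029 ± 0.98 with the block, and an interval of that width leaves changes of either sign possible.

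**Figure D4:**
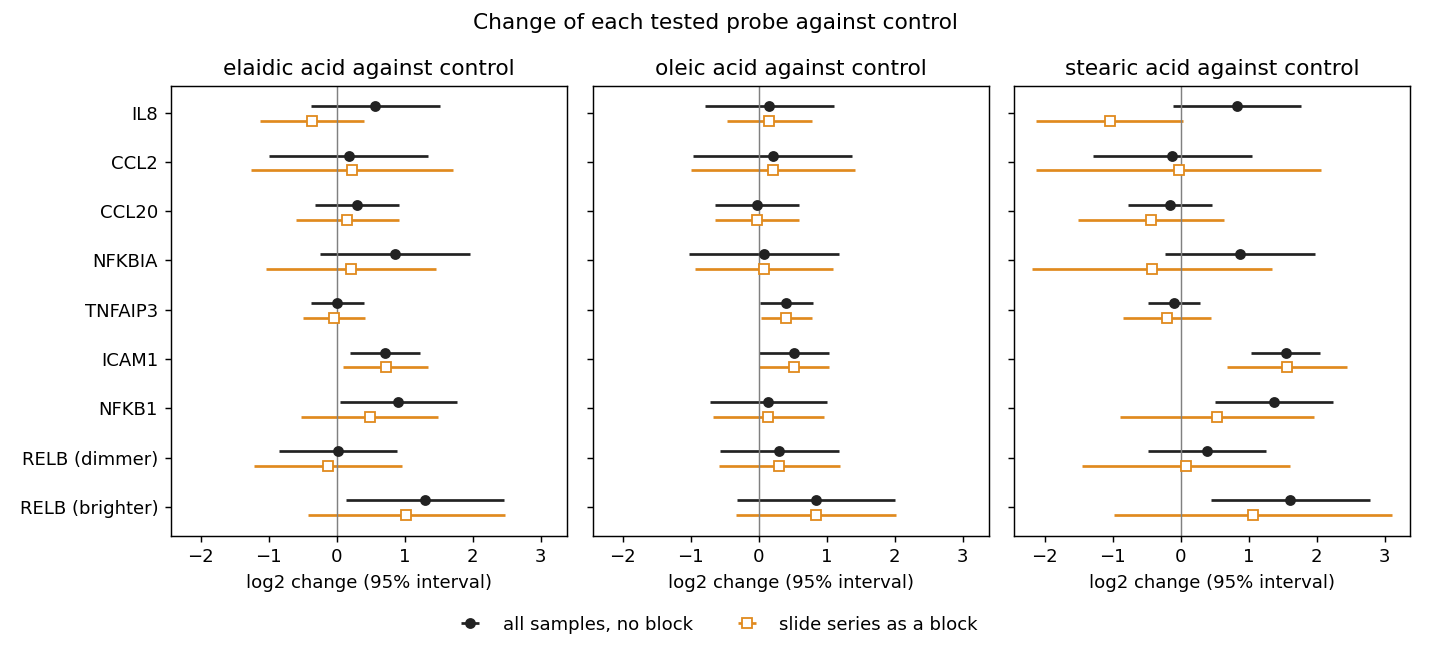
Log2 change of each of the 9 tested probes against control (horizontal axis, with 95% intervals from limma) for each acid, from all samples without a block (filled circles) and with slide series as a block (open squares). ICAM1 keeps its position in both fits, at 1.54 and 1.57 with stearic acid, while IL8 moves to the other side of 0 with the block, from 0.83 to -1.04.

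Counted over the set, 3 of the 9 tested probes were called higher with stearic acid than in control (ICAM1, NFKB1 and the brighter RELB probe) and 0 lower, where 15% of all 22939 tested probes were called higher and 14.8% lower. In oleic against stearic acid 1 member probe was called higher (TNFAIP3) and 2 lower (ICAM1 and NFKB1), where 21% of all probes were called higher and 18.4% lower. With so many probes called in these contrasts, whose groups lie in different slide series, the counts do not set the members apart. At an unadjusted p under 0.05 the same contrasts had 20.5% of all probes higher and 25.5% lower with stearic acid than in control, and 28.9% higher and 22.5% lower with oleic than with stearic acid. With stearic acid 4 member probes (IL8 beside the 3 called) lay wholly above control and 0 below, as did 18.7% and 18.9% of all probes, and 1 member lay above and 3 below between oleic and stearic acid, as did 23.5% and 21.2% of all probes.

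In the contrasts of elaidic acid, limma called 0 members. Against control 0.305% of all probes were called higher and 0.0174% lower, and 3 members (ICAM1, NFKB1 and the brighter RELB probe) were higher at an unadjusted p under 0.05, where 8.1% of all probes were higher and 6.21% lower. ICAM1 was the 1 member whose elaidic acid and control samples did not overlap, where 3.82% of all probes were wholly higher and 2.68% wholly lower, and within series A 7.17% and 5.72%. Against oleic acid 0.301% were called higher and 0.0174% lower, with 1 member (TNFAIP3) lower at the unadjusted threshold, where 10.5% of all probes were higher and 8.44% lower. TNFAIP3 was also the 1 member wholly lower, as were 3.01% of all probes (4.07% wholly higher), and within series A 6.29% in each direction. Against stearic acid 0.0872% were called higher and 0.31% lower, with 1 member (ICAM1) lower at the unadjusted threshold, where 6.74% of all probes were higher and 7.78% lower. ICAM1 was the 1 member wholly below stearic acid, as were 7.13% of all probes (4.72% wholly above). Within series B 2 members (CCL20 and NFKBIA) were wholly above stearic acid and 1 (ICAM1) wholly below, where 11.1% and 12.3% of all probes were.

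Oleic acid against control gave 0 calls by limma over all probes (0%), with 2 members (TNFAIP3 and ICAM1) higher at the unadjusted threshold, where 1.4% of all probes were higher and 1.22% lower. TNFAIP3 was the 1 member whose oleic acid and control samples did not overlap, where 0.606% of all probes were wholly higher and 0.628% wholly lower.

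With slide series as a block limma called 0 members in any contrast. Over all probes it called 0.0262% higher and 0.0131% lower for elaidic acid against control, 0.0174% and 0.00436% for elaidic against oleic acid, 0% and 0.00436% for elaidic against stearic acid, and 0% in the other contrasts. At an unadjusted p under 0.05 in that fit, ICAM1 was the 1 member higher with elaidic acid than in control (3.13% of all probes higher, 3.4% lower) and the 1 member higher with stearic acid than in control (4.09% and 3.37%). TNFAIP3 and ICAM1 were higher with oleic acid than in control (1.7% and 1.61%). ICAM1 was lower with elaidic than with stearic acid (2.24% of all probes higher, 3.58% lower), and 0 members passed between elaidic and oleic acid (2.68% and 3.17%). Between oleic and stearic acid IL8 was higher and ICAM1 lower (3.1% and 3.5%). For IL8 the sign had turned with the block. Without the block its change there was -0.67 ± 0.44 (SE, n = 4 per group), which did not pass. The normalised IL8 values of all 4 oleic acid samples lay below those of all 4 stearic acid samples. A higher IL8 level with oleic acid therefore rests on the block, which runs through the elaidic acid samples.

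The median log2 change over the 8 member genes, each by its brightest tested probe, was 0.64 with elaidic acid against control, 0.18 with oleic acid and 0.85 with stearic acid, beside medians over all probes of -0.10, 0.01 and -0.18. With slide series as a block the member medians were 0.22, 0.18 and -0.11, beside 0.02, 0.01 and 0.01 over all probes. Members above 0 numbered 8, 7 and 5 of 8 without the block and 6, 7 and 3 of 8 with it. The 3 contrasts share the control samples.

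The other genes of the pathway were read from 2 further lists. Of 27 pathway components 24 had a probe and 22 were tested, and of 35 other NF-kB targets 31 had a probe and 24 were tested. TNF itself had no probe of that symbol. In elaidic acid against control limma called 0 of the 22 components and 0 of the 24 targets. At an unadjusted p under 0.05 1 component and 3 targets were higher and 0 components and 4 targets lower. Over all probes 8.1% were higher and 6.21% lower at that threshold. The components of smallest p were NFKBIB, a second inhibitor of the NFKBIA family, at 0.95 ± 0.30, MAP3K7IP1 (now TAB1), a partner of the kinase TAK1, at -0.69 ± 0.33, MAP3K14, the NF-kB inducing kinase, at 1.10 ± 0.53, and TRAF6, a ubiquitin ligase of interleukin-1 and Toll-like receptor signals, at -0.82 ± 0.43 (SE, n = 4 per group). Of these, NFKBIB was the 1 whose groups did not overlap. Within series A they were 0.57, -0.07, 0.39 and 0.07. The targets of smallest p were SOD2, the mitochondrial superoxide dismutase, at 1.77 ± 0.40 (adjusted p = 0.079), CXCL3, a neutrophil attractant close to CXCL1 and CXCL2, at -1.11 ± 0.44, TNIP1, a partner of A20, at 0.48 ± 0.20, and C3, the central complement component, at 1.75 ± 0.76. Within series A these were 0.96, -0.84, 0.43 and 0.65, and a second, dimmer SOD2 probe had a change of 2.12 over all samples.

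In stearic acid against control limma called 6 components higher and 1 lower, and 5 other targets higher and 2 lower, in a contrast where 15% and 14.8% of all probes were called. Their medians were 0.04 and 0.43. RELA, the main activating subunit, rose by 1.08 ± 0.32, NFKBIB by 1.44 ± 0.30, NFKBIE, another inhibitor, by 2.27 ± 0.69, CHUK, the kinase IKK-alpha, by 1.43 ± 0.48, IRAK1, a kinase of the interleukin-1 receptor, by 0.89 ± 0.23 and MAP3K14 by 2.15 ± 0.53, while MAP3K7IP1 fell with a change of -1.28 ± 0.33 (SE, n = 4 per group; limma adjusted p under the threshold for each). A dimmer RELA probe, at 0.26, did not pass. A dimmer probe of MAP3K7IP2 (now TAB2) gave 0.96 and passed, while its brighter probe, at -0.98, did not. With the block the 7 changes of the called components were 0.19, 0.67, 0.25, 0.02, 0.55, 0.74 and -0.04, in the same order, and none passed.

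Among the targets with stearic acid, SOD2 rose by 2.28 ± 0.40, TNIP1 by 1.06 ± 0.20, CX3CL1, a membrane-bound chemokine, by 1.39 ± 0.39, LCN2, the iron-siderophore binding lipocalin, by 1.85 ± 0.46 and C3 by 2.92 ± 0.76 (SE, n = 4 per group). CCL5, a lymphocyte attractant, had a change of -1.12 ± 0.33 and STX11, a syntaxin of vesicle fusion, one of -0.96 ± 0.27, and both fell. Second, dimmer probes gave 2.53 for SOD2, which passed, and 0.83 for CCL5 and -0.42 for STX11, which did not. With the block the 7 changes were 0.65 for SOD2, 0.96 for TNIP1, 1.70 for CX3CL1, 0.62 for LCN2, 0.73 for C3, -0.88 for CCL5 and -0.39 for STX11, and none passed. TNIP1 and CX3CL1 thus kept a size near or above that without the block, as ICAM1 did. CCL5 lost less of its size than SOD2, LCN2, C3 and STX11 did. These genes are set apart by the values themselves, and the error is larger with the block, for ICAM1 0.41 against 0.24.

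In oleic against stearic acid limma called 3 components higher and 5 lower, and 4 targets higher and 8 lower, where 21% and 18.4% of all probes were called. Lower with oleic acid were RELA (-1.44), NFKBIB (-1.53), NFKBIE (-3.13), MAP3K14 (-2.46) and IRAK1 (-1.03) among the components, and BIRC2, an inhibitor of apoptosis (-1.68), TNIP1 (-0.80), SOD2 (-2.0005), CFLAR, an inhibitor of caspase-8 (-1.55), CX3CL1 (-1.24), MMP9 (-1.87), LCN2 (-1.87) and C3 (-3.03) among the targets. MMP9, a matrix protease, was near background in 7 of 16 samples and MAP3K14 in 6. Higher with oleic acid were MAP3K7IP1 (1.23), TRAF6 (1.29) and TLR4, the receptor for bacterial lipopolysaccharide (1.03), and CXCL5, a neutrophil attractant (0.87), CCL5 (1.13), SELE, the endothelial adhesion molecule E-selectin (1.51) and STX11 (1.00). With the block 0 genes of either list were called. There the 5 components that were lower had changes of -0.55 for RELA, -0.76 for NFKBIB, -1.11 for NFKBIE, -1.04 for MAP3K14 and -0.69 for IRAK1. The 8 targets that were lower had 0.65 for BIRC2, -0.70 for TNIP1, -0.37 for SOD2, 0.15 for CFLAR, -1.54 for CX3CL1, 0.085 for MMP9, -0.63 for LCN2 and -0.84 for C3. The 7 genes that were higher had -0.011 for MAP3K7IP1, -0.47 for TRAF6, 0.74 for TLR4, -0.016 for CXCL5, 0.89 for CCL5, -0.59 for SELE and 0.43 for STX11. BIRC2, CFLAR, MMP9, MAP3K7IP1, TRAF6, CXCL5 and SELE thus turned sign with the block. Dimmer second probes, without the block, gave -1.05 for RELA and -1.86 for SOD2, which passed, and -0.00385 for CCL5 and 0.44 for STX11, which did not. Dimmer probes of MAP3K7IP2, at -1.13, and NFKBIZ, at -2.13, passed too, though the brighter probes of these genes did not. The brighter MAP3K7IP2 probe was at 1.11, of opposite sign. Between elaidic and oleic acid, and between elaidic and stearic acid, 0 genes of either list were called by limma. At an unadjusted p under 0.05 there were 6 components higher and 2 lower, and 3 targets higher and 3 lower, with elaidic than with oleic acid. Over all probes 10.5% were higher and 8.44% lower there. With elaidic than with stearic acid 0 components were higher and 1 lower, and 0 targets higher and 3 lower. Over all probes 6.74% were higher and 7.78% lower in that contrast.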

How the data were processed

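Amplified Cy5-labelled RNA was hybridised to 1-colour arrays, per the labels. The deposited intensity values are linear, partly below 0 (background-subtracted) and unscaled between samples, as the values show. How the authors combined the 2 technical replicates named in the labels is not given in the sources used here. The 8029 probes (25.9%) that had a sample at or below 0 were dropped, and the log2 values of the other 22939 were quantile normalised, as the deposited column medians spanned 1.82 in log2. Symbols came from the platform's table (17397 probes named, 13571 unnamed here). All 6 contrasts were fitted over 16 samples by lmFit and eBayes (limma 3.58.1, R 4.3.3), two-sided, with Benjamini-Hochberg adjustment and a threshold of 0.05. Errors are the model's standard errors. Where a gene needed 1 value, its brightest tested probe was used. The test was checked for elaidic acid against control on simulated data with independent noise. Those data held no slide series effect, so that the check does not cover it. Python 3.11.15 and matplotlib 3.10.9 drew the plots.

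All members were named, and, from 2 further lists, the 4 genes of smallest p in elaidic acid against control and every gene with a probe called in any contrast. Members and lists were chosen with earlier results of these data known. Alternatives covered normalisation, a floor of 10 for low values, the dimmest 50% of probes, blocks for slide series and replicate number, subsets of samples and leaving out each sample. Leaving out the 2 dimmest arrays was chosen after seeing the data.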

Additional observations from a re-analysis of the deposited data

Results flagged for a closer look

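In 3 of 36 groups of 4 samples checked (9 probes in 4 groups), the highest or lowest sample stood apart from the others by Dixon's criterion. Chance gives about 5% of groups. IL8 was at 8.56 in stearic acid replicate 1, where the nearest stearic acid sample was at 7.94. ICAM1 was at 11.23 in stearic acid replicate 1, where the nearest was at 10.99. The dimmer RELB probe was at 5.42 in oleic acid replicate 2, where the nearest was at 4.18. All are log2 normalised intensities.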

How the results depend on the processing

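ICAM1 kept its call in stearic acid against control and in oleic against stearic acid under every alternative run except the fits with slide series as a block. The number of member probes called in stearic acid against control, 3, stayed at 3 with median scaling. It was 2 (ICAM1 and NFKB1) with a floor of 10, with the replicate block and with only the 2 groups. Without normalisation, with the dimmest 50% left out and without the 2 dimmest arrays it was 1. With slide series as a block and with both blocks it was 0. With single samples left out it was 1 to 3, and 1 without control replicate 1, stearic acid replicate 1 or stearic acid replicate 3. In oleic against stearic acid the number, 3, stayed at 3 with a floor of 10. It was 2 (ICAM1 and NFKB1) without normalisation, with median scaling, with only the 2 groups and without the 2 dimmest arrays. With the dimmest 50% left out it was also 2 (ICAM1 and TNFAIP3). With the replicate block it was 1, and with slide series as a block or both blocks 0. With single samples left out it was 1 to 2, and 1 without oleic acid replicate 4 or stearic acid replicate 1. The 4 other contrasts had 0 members called in every alternative run. Correlations of same-numbered samples, taken on deviations from the group means, ran from -0.46 to 0.36. Samples of different number were not compared, so that this range cannot decide whether replicate numbers pair the samples. NFKB1 and the brighter RELB probe in stearic acid against control ran from 0.97 to 1.64 and from 0.89 to 2.01 with single samples left out, and NFKB1 lost its call in 4 of 8 such fits and RELB in 6 of 8. TNFAIP3 in oleic against stearic acid ran from 0.46 to 0.58 and lost its call in 6 of 8, and NFKB1 there ran from -1.45 to -1.08 and lost it in 4 of 8. The cause of these changes was not tested.

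The member median was 0.22 for elaidic acid against control with slide series as a block and within series A, and 0.21 with both blocks. For elaidic against stearic acid it was -0.58 without normalisation, 0.20 with slide series as a block and within series B, and 0.33 with both blocks. For stearic acid against control it was 1.51 without normalisation, -0.11 with slide series as a block and -0.23 with both. For oleic against stearic acid it was -1.33 without normalisation, 0.32 with slide series as a block, 0.39 with both and -0.41 without the 2 dimmest arrays, and -0.82 to -0.41 with single samples left out. Without normalisation the median of all probes was 0.26 for stearic acid against control and -0.39 for oleic against stearic acid.

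Single changes of members that turned sign included these. With slide series as a block (and within the series), then with both blocks, elaidic acid against control gave -0.37 and -0.31 for IL8 and -0.039 and -0.012 for TNFAIP3. Elaidic against stearic acid gave 0.68 and 0.62 for IL8 and 0.62 and 0.62 for NFKBIA. Stearic acid against control gave -1.04 and -0.93 for IL8 and -0.41 and -0.41 for NFKBIA, and -0.26 with both blocks for the dimmer RELB probe. Without normalisation stearic acid against control gave 0.18 for CCL2, 0.61 for CCL20 and 0.66 for TNFAIP3, and with median scaling 0.11 for CCL20 and 0.16 for TNFAIP3. TNFAIP3 in oleic against stearic acid was -0.35 without normalisation. With single samples left out, TNFAIP3 in elaidic acid against control ran from -0.060 to 0.083. In elaidic against stearic acid IL8 ran from -0.65 to 0.16 and NFKBIA from -0.28 to 0.23. In stearic acid against control CCL2 ran from -0.30 to 0.11 and the dimmer RELB probe from -0.066 to 0.64.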
